A study of Mus musculus with 6 samples.

Results

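The mitochondrial ribosome translates the few proteins that the mitochondrial genome encodes, all of them subunits of the respiratory chain or of ATP synthase. Its protein subunits are encoded in the nucleus, made in the cytosol and imported, and they assemble around RNAs transcribed from mitochondrial DNA. The small subunit (Mrps genes) holds the messenger RNA and decodes it, and the large subunit (Mrpl genes) joins the amino acids and holds the exit tunnel. Brown adipose tissue is dense in mitochondria, which release the energy of the proton gradient as heat through Ucp1.

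The genes described are those of the count table annotated as protein coding whose symbol is Mrpl or Mrps followed by a number. They number 78 of 45777 genes, 49 of them Mrpl and 29 Mrps. The tissue was brown fat of wild type male C57Bl6/J mice given intraperitoneal injections of PBS (phosphate-buffered saline, the control) or of ginsenoside Rb2, a saponin of ginseng, over 2 weeks. RNA of 3 mice per group was sequenced as poly(A)-selected libraries, and age, dose and injection schedule are not stated in the labels. The comparison asks what Rb2 did to gene expression in the tissue. Libraries are named by the numbers on the table's columns, PBS 1, 2 and 4 and Rb2 1, 3 and 4, which could not be tied to the numbers in the sample titles.

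Total counts ran from 83642183 to 92666780 per library, and the mitochondrial genome took 35.7% to 42.2% of them. The 10 brown adipocyte markers were all measured and together took 1.63% to 1.85% of counts in the PBS libraries and 1.26% to 1.73% in the Rb2 libraries. The 16 skeletal muscle markers took 0.245% in PBS 1, 0.825% in PBS 2 and 0.00729% in PBS 4, against 0.00491% to 0.0484% in the Rb2 libraries. None of these markers was at 0 in every library. Of the brown adipocyte markers 1 was called lower after Rb2, as were 3 of 8 endothelial, 3 of 6 macrophage and 4 of 5 red blood cell markers. None of the 6 fibroblast markers was called, but their summed share was 0.0732% to 0.0979% with PBS and 0.0464% to 0.0716% with Rb2, without overlap. In a whole tissue, fewer cells of a type and less RNA per cell cannot be told apart. PBS 1 and PBS 2 stood apart by muscle transcripts, and Rb2 1 by low values of short transcripts, described below. Their part in the results was not tested, and each main count is given with and without each of them.

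After Rb2 the mitochondrial ribosomal protein genes had the same median fold change as the other genes, with few calls in either direction. All 78 passed the low-count filter, with mean counts of 1621 to 14879. Of these, 3 rose and 2 fell (edgeR, p adjusted over all genes under 0.05), which is 6.41% of the members. Among all 16707 genes tested 10.4% were called, 5.33% higher and 5.11% lower. The members' log2 fold changes, Rb2 over PBS, had a median of -0.01, the same as over all genes, and 38 lay above 0 and 40 below. The middle of the distribution was narrower than that of all genes, with quartiles of -0.23 and 0.18 against -0.38 and 0.30. The extremes were -0.65 (Mrps34) and 0.62 (Mrpl39). The 3 libraries of one group lay wholly above the 3 of the other for 22 members, 9 higher and 13 lower after Rb2, or 28.2%. The same was true of 35.8% of all genes, 18.2% higher and 17.6% lower. An unadjusted p under 0.05 was reached by 19 members (24.4%) and by 30.0% of all genes. With library size alone as the scaling the genes called over the whole table were 492 higher and 779 lower, against 890 and 853, and 1 member, Mrpl39, was called. The mice of a group were separate animals. Each p sets the difference of the groups against the spread between 3 mice per group, which edgeR estimates with the help of the other genes.

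**Figure D1:**
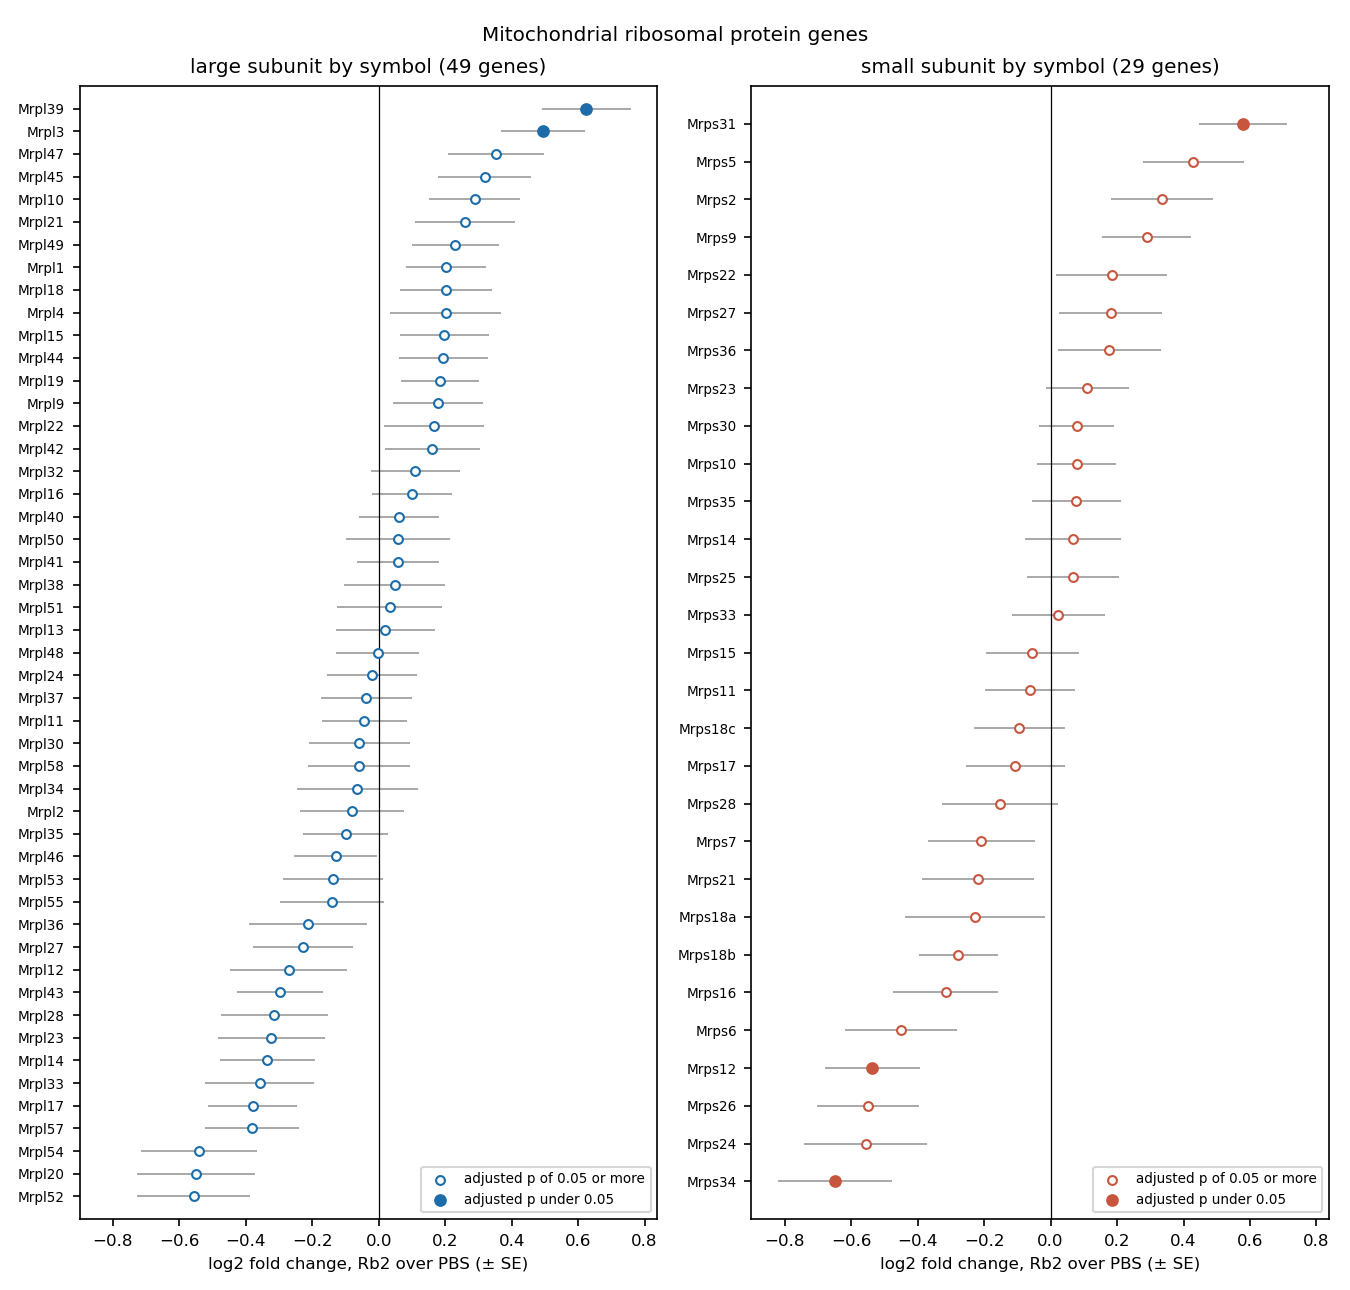
Log2 fold change (Rb2 over PBS, horizontal axis) of each of the 78 mitochondrial ribosomal protein genes with its standard error, for the large and the small subunit; filled points are called. Both subunits straddle 0, and the called genes lie at the ends, from -0.65 to 0.62.

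The 3 genes that rose were Mrpl39, Mrpl3 and Mrps31. Their promoters, and that of Mrps12, which fell, are shown because nuclear genes for mitochondrial proteins are often controlled through short sites just upstream of the start. Each line is the 250 bases before a transcript start in RefSeq (GRCm38.p6), read 5′ to 3′ on the gene's own strand. Capitals mark a match to the letters searched. Mrpl39 lies at chr16:84735245-84735494 on the minus strand, Mrpl3 at chr9:105053018-105053267 and Mrps31 at chr8:22411090-22411339, both on the plus strand, and Mrps12 at chr7:28741822-28742071 on the minus strand.
Mrpl39: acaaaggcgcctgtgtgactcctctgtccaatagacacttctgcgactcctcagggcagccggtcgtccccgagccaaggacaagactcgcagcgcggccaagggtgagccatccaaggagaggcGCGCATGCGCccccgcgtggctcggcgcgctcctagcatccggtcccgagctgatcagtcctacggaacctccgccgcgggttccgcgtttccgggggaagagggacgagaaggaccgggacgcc
Mrpl3: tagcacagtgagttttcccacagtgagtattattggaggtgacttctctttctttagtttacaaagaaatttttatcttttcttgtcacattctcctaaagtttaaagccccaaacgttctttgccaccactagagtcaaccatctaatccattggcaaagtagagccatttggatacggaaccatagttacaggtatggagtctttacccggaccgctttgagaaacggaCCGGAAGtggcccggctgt
Mrps31: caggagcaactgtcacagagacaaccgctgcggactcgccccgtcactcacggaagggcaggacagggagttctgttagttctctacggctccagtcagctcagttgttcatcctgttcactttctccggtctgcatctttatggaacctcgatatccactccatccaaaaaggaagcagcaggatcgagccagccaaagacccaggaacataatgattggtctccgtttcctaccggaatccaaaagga
Mrps12: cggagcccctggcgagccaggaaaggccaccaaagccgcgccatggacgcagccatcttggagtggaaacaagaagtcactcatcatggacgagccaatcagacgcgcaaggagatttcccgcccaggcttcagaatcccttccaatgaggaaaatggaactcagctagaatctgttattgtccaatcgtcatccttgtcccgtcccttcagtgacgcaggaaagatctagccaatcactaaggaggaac
The 3 sets of letters were searched on both strands in the window from 250 bases before to 50 after the start, available for 69 of the 78 members. The NRF1 letters (those in capitals in Mrpl39, with any base at the sixth place) were in 13 of 69 members (18.8%). They were in 10.2% of the 12279 tested genes with a window and in 5.19% of all 27025 genes with a window. Mrpl39 holds it 125 bases before its start, where it reads the same on both strands. CCGGAAG, letters bound by GABPA and other ETS factors, was in 26 of 69 (37.7%), against 17.9% of tested genes and 9.93% of all genes with a window. Mrpl3 holds it 19 bases before its start, and Mrps12 just past its start, beyond the stretch printed. AAGATGGCG, letters bound by YY1, was in 8 of 69 (11.6%), against 3.05% and 1.64%. The Mrps31 window held none of the 3, but the RefSeq gene record of Mrps31 begins upstream of it, at 22410449, and the window before that start was not searched. A match is a description, not a site. Members with the NRF1 letters had a median log2 fold change of -0.06 and those without -0.03. With the GABPA letters the median was -0.12 (26 genes) and without them 0.06 (43 genes). With the YY1 letters it was -0.08 (8 genes) and without them -0.004 (61 genes). An offset for GC content and length, described below, changed these medians. With and without the letters they were then 0.06 and 0.08 for NRF1, -0.02 and 0.15 for GABPA, and 0.16 and 0.08 for YY1.

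Some members share their promoter region with a gene on the other strand. A tested gene on the other strand with its start within 1000 bases of the member's, in either order, was found for 31 of 78 members (39.7%) and for 16.3% of 15617 tested genes with a position (GENCODE M21). Mrpl46 and Mrps11, of the large and the small subunit, are such a pair, with starts 412 bases apart and log2 fold changes of -0.13 and -0.06, neither called. Mrps12 starts 172 bases from Sars2, the mitochondrial seryl-tRNA synthetase, whose log2 fold change was -0.22 (adjusted p 0.319) beside -0.54 for Mrps12. Mrps34 starts 29 bases from Eme2, which was at 0.07 (adjusted p 0.856) beside -0.65. Mrpl49 starts 59 bases from Fau, a gene of a cytosolic ribosomal protein, with 0.23 and -0.56, neither called. Some other neighbours were called, all higher, beside members that were not. They were Pnpla7 (1.02, beside Mrpl41 at 0.06), Zfp661 (0.92, beside Mrps5 at 0.43), Twnk (0.70, beside Mrpl43 at -0.30) and 2610507I01Rik (0.67, beside Mrpl55 at -0.14).

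Mrpl39, a protein of the large subunit without a bacterial relative, had the smallest p of the members. Its level in CPM (the read count scaled by library size and TMM) was 58.3, 51.8 and 63.5 in the PBS libraries, in the order PBS 1, 2, 4. In the Rb2 libraries, in the order Rb2 1, 3, 4, it was 91.2, 96.7 and 79.8 CPM. All 3 Rb2 libraries lay above all 3 PBS libraries, and Rb2 4 was the closest to the controls. The log2 fold change was 0.62 ± 0.13 (SE, n = 3 against 3; edgeR adjusted p 0.0233).
Mrps31, a mitochondria-specific protein of the small subunit, had 26.6, 24.9 and 32.5 CPM in the PBS libraries and 41.4, 43.7 and 40.4 CPM in the Rb2 libraries. The Rb2 libraries were close to each other and did not overlap the PBS libraries. The log2 fold change was 0.58 ± 0.13 (SE; edgeR adjusted p 0.0276).
Mrpl3 is the relative of the bacterial protein L3, which reaches towards the site of peptide bond formation. Its level was 38.6, 40.3 and 47.2 CPM with PBS and 62.8, 59.0 and 55.8 CPM with Rb2. The groups did not overlap, and PBS 4 was the highest control for Mrpl39, Mrps31 and Mrpl3 alike. The log2 fold change was 0.49 ± 0.13 (SE; edgeR adjusted p 0.0381).

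Both genes that fell belong to the small subunit. Mrps34, a mitochondria-specific protein (chromosome 17, 24895120 to 24896289), had 49.5, 65.2 and 63.8 CPM with PBS and 29.7, 40.1 and 44.0 CPM with Rb2. Rb2 1 was the lowest library and PBS 1 the lowest control, and the groups did not overlap. The log2 fold change was -0.65 ± 0.17 (SE; edgeR adjusted p 0.0437).
Mrps12 is the relative of bacterial S12, a protein of the decoding centre that streptomycin-resistance changes affect in bacteria. It had 32.5, 41.7 and 37.0 CPM with PBS and 22.8, 24.7 and 29.1 CPM with Rb2. Again Rb2 1 was lowest and the groups did not overlap. The log2 fold change was -0.54 ± 0.14 (SE; edgeR adjusted p 0.0443). None of the 5 genes called overlaps another counted gene in the annotation.

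Just past the threshold, with an adjusted p from 0.05 to under 0.1, stood 7 of 78 members, beside 9.87% of all genes, and 6 of the 7 had lower means after Rb2. Mrps26, of the small subunit, had 24.8, 31.2 and 32.6 CPM with PBS and 17.2, 20.9 and 22.6 CPM with Rb2, without overlap (log2 fold change -0.55, adjusted p 0.051). Mrpl52, with the lowest fold change of the large subunit, had 25.4, 30.8 and 29.4 CPM with PBS and 14.8, 20.9 and 22.5 CPM with Rb2 (-0.56, adjusted p 0.0635). Mrpl54, Mrpl20, Mrps24 and Mrpl17 followed with -0.54, -0.55, -0.56 and -0.38. The only one of the 7 with a higher mean was Mrps5, the relative of bacterial S5 at the messenger RNA entrance, with 35.2, 40.0 and 51.3 CPM against 57.1, 59.3 and 54.1 CPM (0.43, adjusted p 0.0938).

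**Figure D2:**
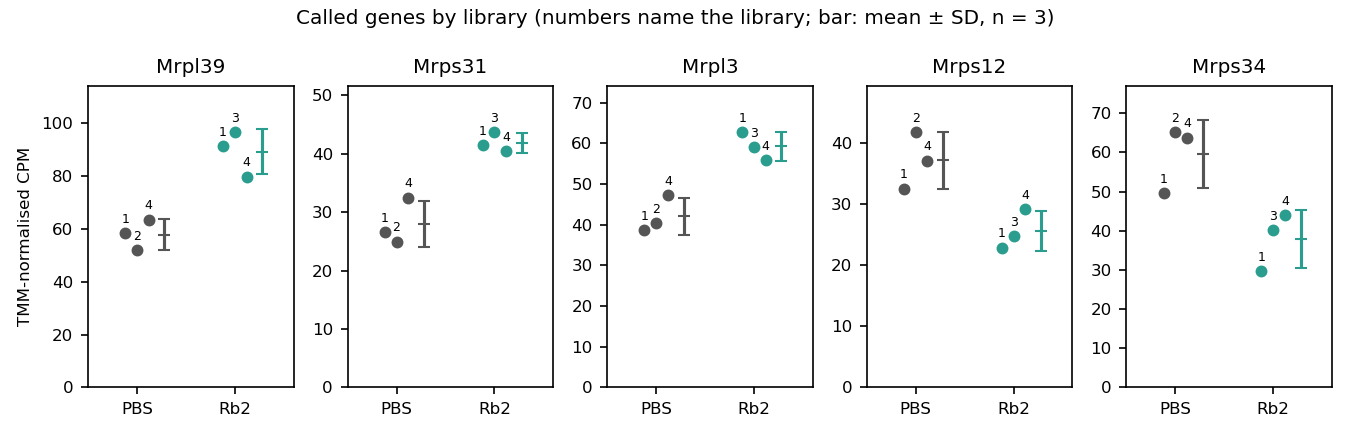
Level (TMM-normalised CPM, vertical axis from 0) of the 5 called genes in each of the 6 libraries, points numbered by library, with the mean ± SD of each group (n = 3). Mrpl39, Mrps31 and Mrpl3 lie higher in all 3 Rb2 libraries than in any PBS library, and Mrps34 and Mrps12 lower.

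The calls depended on which libraries were in the fit. Without PBS 1, without PBS 2, without Rb2 1 or without Rb2 3, no member was called by edgeR. In these fits 17, 12, 17 and 13 members had an unadjusted p under 0.05. Few genes of the whole table were called in them, 334 of 17156, 303 of 17156, 548 of 17199 and 601 of 17272. Without PBS 4, 4 members were called, all higher, beside 1564 of 17212 genes. Without Rb2 4, 3 members were called higher and 5 lower, beside 2269 of 17087 genes. Over the 6 fits that leave out 1 library, Mrpl39 was called in 2, with adjusted p from 0.0156 to 0.117 and log2 fold changes from 0.55 to 0.70. Mrps34 was called in 1, with -0.77 to -0.50. With PBS 1 and PBS 2 both left out, PBS 4 was the only control, and the members' median log2 fold change was -0.09. With the mean of the muscle markers as a covariate no member was called, beside 856 of 16707 genes, and 15 members had an unadjusted p under 0.05. The DESeq2 Wald test on all 6 libraries called 12 of 78 members, 4 higher and 8 lower, beside 3295 of 15405 genes.

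The large and the small subunit had nearly the same middle. Of the 49 Mrpl genes 2 rose and none fell, with 24 above 0 and 25 below and a median log2 fold change of -0.0038. Of the 29 Mrps genes 1 rose and 2 fell, with 14 above and 15 below and a median of -0.055. The medians differed by 0.051, and the difference between the subunits had a standard deviation of 0.033 over libraries of one group. Summed over members, the large subunit had 1.91, 1.90 and 1.94 times the CPM of the small one in the PBS libraries and 1.98, 1.99 and 1.93 times in the Rb2 libraries, in the same order. The mean ratio was 1.92 ± 0.02 (SD, n = 3) with PBS and 1.97 ± 0.03 with Rb2. The groups overlapped, since Rb2 4 lay below PBS 4. By place in the structure, Mrps30 and Mrps18a belong to the large subunit and Mrps36 is a component of the alpha-ketoglutarate dehydrogenase complex. Sorted in that way the 51 large and 26 small subunit genes had medians of -0.0038 and -0.059. Members with a bacterial relative (46) had a median of -0.06 and mitochondria-specific ones (31) of 0.05, with 1 higher and 1 lower called in the first and 2 higher and 1 lower in the second. With GC content and length as an offset the order turned, to 0.10 and 0.08.

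Fold changes were lower at higher GC content of the transcript. Over the 78 members Spearman's rank correlation between log2 fold change and GC content was -0.419, and over 15817 tested genes with a transcript sequence it was -0.335. Over members it was 0.462 with transcript length, against 0.154 over all genes. Genes share their libraries and are not independent, and among members GC content and length go together (rank correlation -0.593), so these coefficients are descriptions. In the 26 members lowest in GC (39.6% to 48.3%) the median was 0.07 and in the middle 26 it was 0.08. In the 26 highest (52.7% to 60.6%) it was -0.18, with 4 above 0. All 3 risen genes were among the 26 lowest (Mrpl39 48.2%, Mrpl3 45.6%, Mrps31 44.2%) and both fallen ones among the 26 highest (Mrps34 60.6%, Mrps12 56.5%). The other genes of the table were alike in this: the 1583 genes highest in GC content had a median of -0.33 and the 8 members among them -0.32. Within the small subunit the rank correlation with GC content was -0.593 (29 genes) and within the large subunit -0.309 (49 genes). The subunits had median GC contents of 49.7% and 50.9%. Within single libraries, the rank correlation of the members' deviation from their mean with GC content was 0.04 in PBS 1, 0.485 in PBS 2 and 0.529 in PBS 4. It was -0.408, -0.346 and -0.271 in the Rb2 libraries. PBS 4 was thus the farthest from 0, over all genes too (0.401, against -0.296 in Rb2 1).

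**Figure D3:**
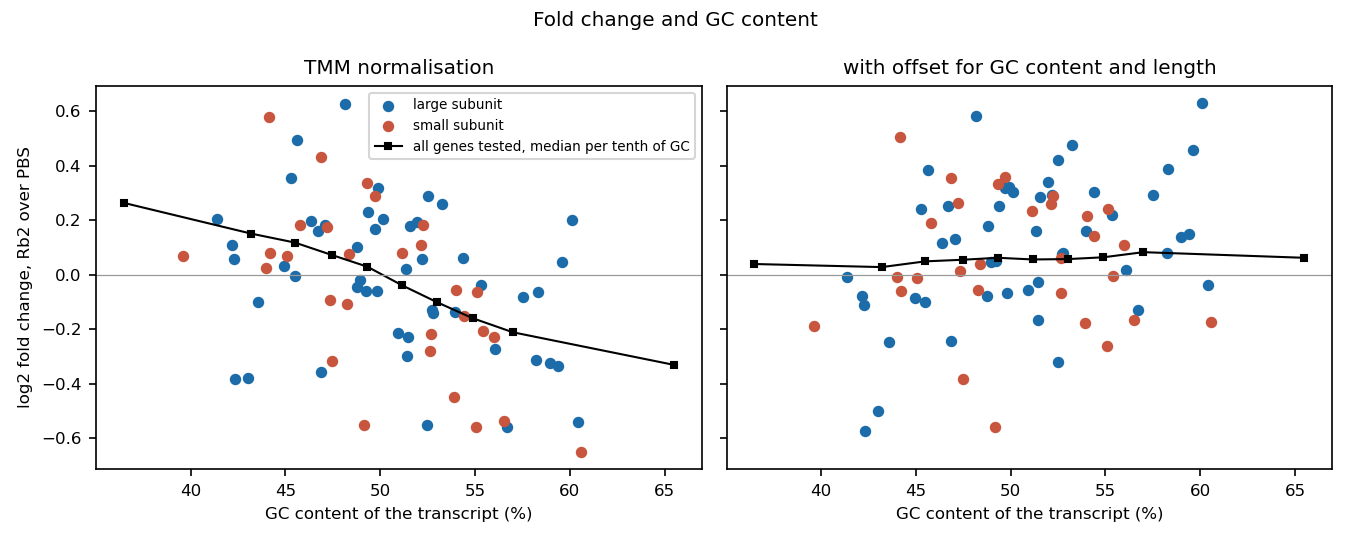
Log2 fold change (Rb2 over PBS, vertical axis) of the large and small subunit genes against the GC content of the transcript (percent), on the left with TMM normalisation and on the right with the offset; the line joins the medians of all tested genes in 10 bins of GC content. On the left the line goes from 0.26 in the lowest bin to -0.33 in the highest, and on the right it stays between 0.03 and 0.08.

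With GC content and transcript length fitted as an offset in each library, 1294 of 15817 genes (8.18%) were called, and 1 member. Mrpl39 kept its call (log2 fold change 0.58, adjusted p 0.0367). Mrps31 was at 0.51 (adjusted p 0.0609) and Mrpl3 at 0.39 (0.0888). Mrps34 went from -0.65 to -0.17 (adjusted p 0.359) and Mrps12 from -0.54 to -0.16 (0.377). Mrps26, matched to a transcript of 4278 bases and 49.2% in GC, was at -0.56 (adjusted p 0.0679). Its RefSeq gene record (chromosome 2, 130563757 to 130565394) is shorter than that transcript. The length and GC content used for Mrps26, and so its value under the offset, are uncertain. Mrpl4, a large subunit protein with a GC content of 60.1%, went from 0.20 to 0.63 (adjusted p 0.051), and Mrpl57, with 42.3%, from -0.38 to -0.57 (0.0532). The medians under the offset were 0.13 for the large subunit, 0.04 for the small and 0.06 for all genes. The rank correlation between fold change and GC content was then 0.013 over all genes and 0.223 over the members. Within the large subunit it was 0.398 and within the small subunit -0.0956, so the offset did not level the large subunit's fold changes over GC content.

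Library Rb2 1 was the lowest of the 6 libraries for 44 of 78 members (56.4%), against 24.2% of all genes. PBS 4, Rb2 3 and Rb2 4 were the lowest for none, and were the highest for 24, 22 and 18 members. The median deviation of the members from the mean of the libraries, in log2 CPM, was -0.07, -0.01 and 0.12 with PBS and -0.25, 0.08 and 0.10 with Rb2, in the same order. Rb2 3 and Rb2 4 were close to PBS 4, and the 2 groups overlapped. As a share of the counts outside the mitochondrial genome the members took 0.661%, 0.705% and 0.756% in the PBS libraries and 0.585%, 0.695% and 0.777% in the Rb2 libraries. Of the 26 members with the shortest transcripts (418 to 1031 bases), Rb2 1 was lowest for 23, with a median deviation of -0.42. Over all 1692 genes in that range of length the median there was -0.29, and 49.7% had their lowest value in Rb2 1. The cytosolic ribosomal protein genes, the closest comparison in kind and mostly short, were lowest in Rb2 1 for 73 of 74. Without Rb2 1 the members' median log2 fold change was 0.09, and all 3 risen and both fallen genes kept their direction.

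**Figure D4:**
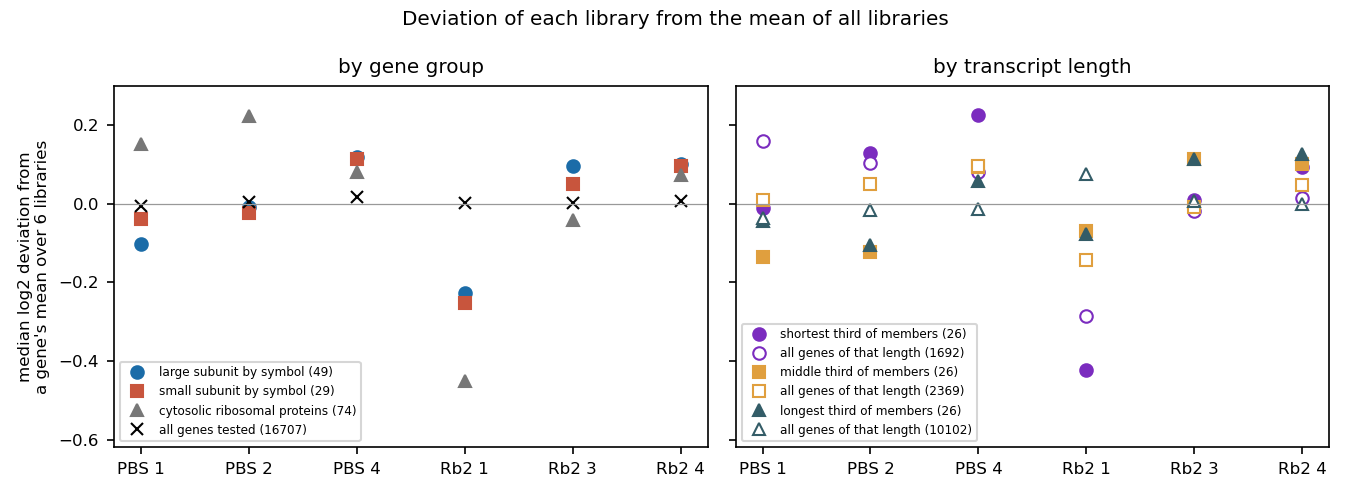
Median log2 deviation (vertical axis) of the genes of each library from their mean over all 6 libraries, by gene group on the left (large subunit, small subunit, cytosolic ribosomal proteins, all genes) and in 3 classes of transcript length on the right, with members filled and all genes of that length open. In Rb2 1 both subunits (-0.23 and -0.25) and the 26 shortest members (-0.42) lie lowest, and so do the cytosolic ribosomal proteins (-0.45).

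Per kilobase of transcript, Mrpl42 had the highest level at 231 CPM per kb, followed by Mrps21 (186), Mrps36 (172), Mrpl34 (163) and Mrpl30 (155). The lowest were Mrps26 (5.81), Mrpl47 (5.42) and Mrpl19 (4.45). The place of Mrps26 is uncertain, since the transcript length used for it exceeds the span of its RefSeq gene record. None of the 5 highest was called. Mrpl42 was at 142, 138 and 157 CPM with PBS and 145, 185 and 158 CPM with Rb2, with overlap. Mrpl47 was at 15.7, 15.5 and 16.8 CPM with PBS and 16.9, 23.6 and 20.8 CPM with Rb2, without overlap but also not called (adjusted p 0.137). In the annotation 24 members overlap another counted gene, Mrps6 with Slc5a3 and Mrpl18 with Tcp1 among them, and the sources used here do not say whether the counting used strand. Reads of such pairs may not be told apart, nor those of near-identical copies: the count of Mrps36-ps1 was 10.9% of that of Mrps36, and that of Mrpl23-ps1 10.7% of that of Mrpl23.

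The ribosomal RNAs that these proteins surround were read as well, although the libraries were selected for poly(A). The small subunit's mt-Rnr1 (12S) had 5963 ± 1365 CPM (SD, n = 3) with PBS and 7013 ± 1455 with Rb2 (log2 fold change 0.23, adjusted p 0.497). The large subunit's mt-Rnr2 (16S) had 9789 ± 2329 and 9473 ± 1994 CPM (-0.05, adjusted p 0.907). None of the 13 protein genes of the mitochondrial genome, the products of this ribosome, was called in the main edgeR fit. There 1 had an unadjusted p under 0.05, and DESeq2 called 1. With an offset for GC content alone edgeR called 1 lower. The median log2 fold change of the 13 genes was 0.18, with 10 above 0. It was 0.08 without PBS 4, 0.10 without Rb2 1 and 0.08 with library size alone, and 0.06 under the offset for GC content and length. It was 0.004 with the offset for GC content alone and 0.009 with a block on the column numbers, with 7 of 13 above 0 in each. It was larger, 0.25, without PBS 1 and without Rb2 4. With PBS 1 and PBS 2 both left out, which leaves PBS 4 as the only control, it was 0.32. The 5 mitochondrial ribosomal proteins with other names (Dap3, Ptcd3, Chchd1, Aurkaip1 and Gadd45gip1) held no call in the main edgeR fit, while 2 had an unadjusted p under 0.05. DESeq2 called 1 in each direction. With a count minimum of 50 edgeR called 1 lower, and without Rb2 4 it called 1 higher. Gadd45gip1 was at -0.56 (adjusted p 0.0643) and Ptcd3 at 0.42 (0.0805).

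Among the factors that work on the ribosome every call of the edgeR test on all 6 libraries was upward. Of 16 mitochondrial translation factors tested, 5 rose and none fell, with a median log2 fold change of 0.29, beside a background of 5.33% of genes higher. The elongation factor Gfm1 went from 64.2, 64.0 and 77.6 CPM with PBS to 131, 129 and 95.4 CPM with Rb2, without overlap (0.79, adjusted p 0.0196). Guf1, the back-translocating factor, was at 0.73 (0.0103), and the initiation factor Mtif2 at 0.64 (0.021). Lrpprc, which stabilises mitochondrial messenger RNA, was at 0.78 (0.0286), and the release factor Mtrf1l at 0.60 (0.0478). The elongation factor Tufm was at 0.02 (adjusted p 0.943). Of 26 assembly factors 5 rose and none fell, with a median of 0.27. Mterf4, a protein that brings the methyltransferase Nsun4 to the ribosome, had 13.2, 12.6 and 12.3 CPM with PBS and 21.8, 23.9 and 21.0 CPM with Rb2 (0.81, adjusted p 0.0073). Also higher were Mrm1 (0.77), which methylates the 16S RNA, Tfb1m (0.58), which methylates the 12S RNA, Mterf3 (0.65) and Rmnd1 (0.46). Of the mitochondrial aminoacyl-tRNA synthetases, which charge the tRNAs it reads, Iars2 rose by 0.57 and Nars2 by 0.59 on the log2 scale, and none fell. Lars2 stood far above the other listed synthetases, with a PBS mean of 1292 CPM against 97.3 CPM for Iars2, the next highest. What lies behind that level was not tested. Lars2 had the widest gap, 1055, 1494 and 1326 CPM with PBS against 258, 661 and 617 CPM with Rb2, without overlap. It missed the threshold (-1.34, adjusted p 0.0526). It was called lower by DESeq2 (adjusted p 8.51e-05), with a count minimum of 50 (0.0416) and without Rb2 1 (0.0386), and not called in the other fits, with adjusted p up to 0.374.

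Among the 12 regulators of nuclear genes for mitochondria, 4 rose and 1 fell. Gabpa, whose letters are in 26 of the promoters, was at 0.55 (adjusted p 0.0342), and Tfam, which packages mitochondrial DNA, at 0.49 (0.0351). Myc was at 1.83 (0.0113), from a low level of 0.920 to 1.13 CPM with PBS to 2.12 to 4.90 CPM with Rb2, and the coactivator Ppargc1b at 0.68 (0.0294). Pprc1, another coactivator, fell by 1.24 on the log2 scale (adjusted p 0.00802), and Nrf1 was at -0.37 (0.0997). The counts of calls in these lists depended on the libraries. Without PBS 1 the translation factors had 0 calls, the assembly factors 1 and the synthetases 0, and without PBS 2 also 0, 1 and 0. Without Rb2 1 the same lists had 1, 2 and 0 higher, and 1 synthetase, Lars2, was lower. Without Rb2 4 they had 7, 5 and 4 higher, and 3 of those 5 assembly factors were also called in the main fit. Of the regulators none was called higher without PBS 1 or without PBS 2, 1 without Rb2 1, 1 with library size alone, 1 with the muscle covariate and 2 under the offset, where Gabpa (adjusted p 0.0795) and Tfam (0.104) were not called. Pprc1 was called lower in each of these. With both PBS 1 and PBS 2 left out, which leaves PBS 4 as the only control, the medians of the translation and assembly factors were 0.11 and 0.09. With library size alone the counts of translation factors, assembly factors and synthetases were 4, 2 and 0, and under the offset 3, 5 and 1. Of the 5 assembly factors called in the main fit 3 kept their call under the offset. Rmnd1 (edgeR adjusted p 0.101) and Tfb1m (0.0629) lost it, and Ngrn and Noa1 were called there instead. The synthetase called under the offset was Vars2 (0.0283), which was not called in the main fit.

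**Figure D5:**
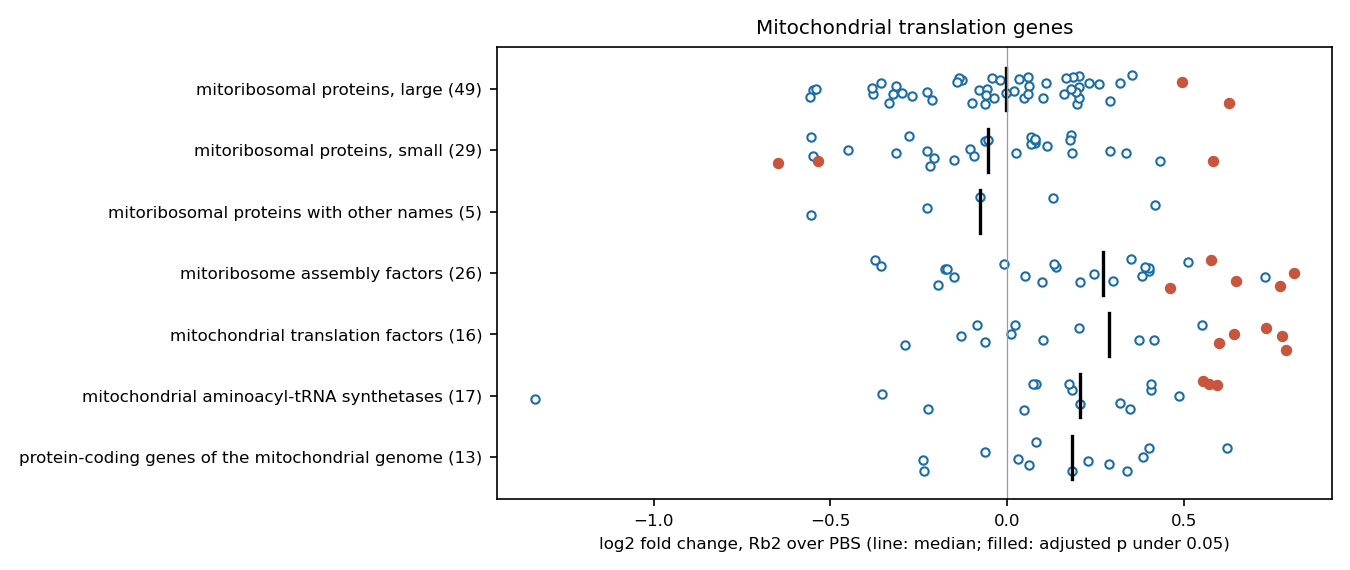
Log2 fold change (Rb2 over PBS, horizontal axis) of the members by subunit and of the lists that work with them, each point a gene, filled where the adjusted p is under 0.05, with a line at each list's median. Translation and assembly factors have medians of 0.29 and 0.27, and the large and small subunits of -0.0038 and -0.055.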

How the data were processed

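Brown fat of 6 mice was measured, 3 per group. The authors deposited whole-number read counts per gene, not normalized, in 1 table. The submitters' processing notes name mm10, StringTie, HISAT2, Bowtie2 and Trimmomatic, without versions or roles. Neither the counter nor its use of strand is named there. The members and lists were chosen with earlier results of these data known.

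Counts were tested with edgeR 4.0.16 (R 4.3.3), quasi-likelihood F test, TMM scaling, robust dispersions and a count minimum of 10 (total 15), which left 16707 genes. P-values were adjusted by Benjamini-Hochberg over these genes, with a threshold of 0.05. SE is the log2 fold change over the square root of F. CPM is scaled by TMM. GC content and length came from GENCODE M21 transcripts matched to the table's RefSeq accessions, for 94.7% of tested genes and all 78 members. For some members, Mrps26 and Mrpl51 among them, the matched transcript was longer than the RefSeq gene record. The offset is a natural spline with 5 degrees of freedom in each library. The scripts were tested on simulated data. Named members were those called, the smallest p and extreme folds per subunit, the 5 highest and the 3 lowest per kb. Mrpl54, Mrpl20, Mrps24, Mrpl17, Mrpl4, Mrpl57 and the promoter neighbours named were chosen after their values were seen. Alternatives were other scalings and filters, DESeq2 1.42.0, limma-voom 3.58.1, offsets, a muscle covariate and left-out libraries.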

Additional observations from a re-analysis of the deposited data

How the results depend on the processing

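Of the 5 called genes, 3 higher and 2 lower, none changed direction under any alternative run. Higher calls numbered 1 (Mrpl39) with library size alone, with the offset for GC content and length, with the offset for GC content and with the offset from longest transcripts, which was added after seeing the data. They numbered 0 with the muscle covariate and with the replicate block, and 0 to 4 when 1 library was left out. Lower calls numbered 8 by the DESeq2 Wald test, 4 with a count minimum of 50 and 8 at an adjusted p under 0.1. They numbered 0 with library size alone, the 3 offsets, the muscle covariate and the replicate block, and 0 to 5 when 1 library was left out. Mrps26 and Mrpl52 were among those that passed with a count minimum of 50. The difference of the subunit medians, 0.0508, was 0.0892 with the offset for GC content and length and 0.0107 with that for GC content. Without PBS 1 and PBS 2, the PBS libraries richest in muscle transcripts, it was 0.00294, with PBS 4 the only control. It was -0.0168 with the replicate block, and -0.00206 to 0.0422 when 1 library was left out. The replicate block on the column numbers called 96 genes in all, against 1743. Number 2 occurs only with PBS and number 3 only with Rb2. In that fit the fold change therefore rests on PBS 1, PBS 4, Rb2 1 and Rb2 4 alone. Deviations from the group means correlated at -0.197 and -0.215 between same-numbered libraries. Between the other PBS and Rb2 libraries the correlations ran from -0.472 to 0.506. Same-numbered pairs are few and deviations within a group sum to 0, so these values can neither show nor exclude pairing. Over all genes, 856 were called with the muscle covariate and 303 to 2269 when 1 library was left out, with 303, 334, 548 and 601 when PBS 2, PBS 1, Rb2 1 and Rb2 3, in that order, were omitted. The causes of these shifts were not tested. The lowest count of a member in a library was 1257.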
